A study of Mus musculus with 8 samples.

Results

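The genes described here are the 5 mouse Cyp2j epoxygenase genes with a probe on the array (Cyp2j5, Cyp2j6, Cyp2j9, Cyp2j11 and Cyp2j13), the epoxide hydrolase genes Ephx1 and Ephx2, and Por, which encodes cytochrome P450 reductase. They were chosen by name, and every non-control probe carrying one of the 8 names was kept. This gave 13 of the 41174 non-control probes on the array, of which 12 were detected and tested. Liver RNA came from male wild-type C57BL/6 mice, the Methods naming the substrain C57BL/6J. By the labels the mice were 14 to 17 weeks of age when the diets began, and the Methods give a wider range for the experiments as a whole. For 4 weeks, 4 mice received standard chow (STD) and 4 received a high-fat/high-cholesterol diet, called the atherogenic (ATH) diet in the Methods, which also list cholic acid among its ingredients. One mouse was measured per array, and all mice shared genotype, sex and strain label. One slide held every STD array and another every ATH array, and effects of slide and of diet cannot be told apart.

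CYP2J and CYP2C enzymes add an oxygen atom across a double bond of arachidonic acid and so make epoxyeicosatrienoic acids (EETs), lipid mediators known for vasodilating and anti-inflammatory actions. P450 reductase passes electrons from NADPH to all microsomal P450 enzymes. Soluble epoxide hydrolase, encoded by Ephx2, turns EETs into less active diols, and microsomal epoxide hydrolase, encoded by Ephx1, acts mostly on epoxides of foreign compounds and to a lesser degree on EETs. In liver all these enzymes are found mainly in hepatocytes.

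The probes are DNA strands of 60 bases, and 3 features of them bear on the values. The 9 Cyp2j probes lie within 584092 bases of chromosome 4 in the older assembly mm7, the one the array design is annotated with, from position 95437900 to 96021991 on the minus strand. Neighboring Cyp2j genes are alike in sequence, so all 72 pairs of probes from different members were compared. One pair shared a run of 18 bases, shown in capitals, and no other pair shared more than 9. Over the 30 bases in which these probes overlap, 28 matched.
Cyp2j11 A_51_P423085: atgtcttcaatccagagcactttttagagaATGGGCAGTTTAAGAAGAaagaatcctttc
Cyp2j13 A_51_P476481: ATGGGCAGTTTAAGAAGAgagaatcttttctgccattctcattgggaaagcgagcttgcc
The Cyp2j11 probe lies at chr4:95690233-95690292. The Cyp2j13 probe is annotated from chr4:95438221-95449204, a span of 10984 bases, so its sequence is split on the genome. How much RNA of one gene binds to the probe of the other was not tested. Ephx1 was read by 2 separate probes, shown whole because the diet result below rests on them.
Ephx1 A_51_P508289: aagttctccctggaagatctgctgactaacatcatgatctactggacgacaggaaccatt
Ephx1 A_52_P416072: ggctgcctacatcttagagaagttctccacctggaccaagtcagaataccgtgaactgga
These lie at chr1:180970107-180970166 and chr1:180971600-180971659 on the minus strand, with 1493 bases between their starts. Ephx2 was read at chr14:60944946-60945005 by a probe that begins taattcttttgagtatgcctgtgccatcag. Por was read at chr5:134706526-134706585 by a probe that begins ggtgcagccccaacatgtgattttgaatga, on the plus strand.

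Values are given as scaled log2 signal, which is the log2 of a spot's processed intensity minus the 75th percentile of its array, so that 0 stands for the 75th percentile. On this scale a difference of 1 is a doubling. Levels of different probes are not comparable, because probes bind with different strength. Before scaling, the 75th percentile was 8.81 to 8.91 on the STD arrays and 9.11 to 9.46 on the ATH arrays. The share of spots well above background was 72.3% to 77.3% on STD arrays and 72.9% to 77.8% on ATH arrays. The scaling therefore moves every diet difference by the same amount, and after it the median log2 fold change over all 31056 probes tested was -0.15. The limma p-values set the diet difference against the spread between mice and arrays of the same diet. Each diet had its own slide, so this spread holds no difference between slides.

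One member showed that the arrays fell apart in a way the diet labels do not give. Cyp2j9, whose probe begins aaattaaggtgacagagagtgcgtgcaatg at chr4:95961197-95961256, had a scaled log2 signal of 2.59, 2.55, 1.003 and 1.31 on STD replicates 1 to 4. On ATH replicates 1 to 4 it was 2.61, 2.80, 0.63 and 1.05. On both diets replicates 1 and 2 were high and replicates 3 and 4 were low, and the diets overlapped fully. The SD within a diet was 0.82 on STD and 1.09 on ATH, and the diet difference was -0.09 ± 0.57 (log2 fold change ± SE, n = 4 per diet, limma adjusted p = 0.931).

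The gene with the profile nearest to that of Cyp2j9 was Nnt, which encodes the mitochondrial nicotinamide nucleotide transhydrogenase. Nearness was the root mean square difference over the 8 arrays after each gene was centered on its own mean, and for Nnt it was 0.268 log2 units among 14937 genes. Its probe A_52_P395228 read 3.65, 3.75, 1.99 and 1.81 on STD replicates 1 to 4, and 3.79, 4.18, 1.98 and 1.94 on ATH replicates 1 to 4. All 4 Nnt probes, on chromosome 13, were higher on replicates 1 and 2 than on replicates 3 and 4 within each diet. Mice of the C57BL/6J substrain are known to carry a deletion inside Nnt that other C57BL/6 substrains lack. Whether the mice differed in substrain or source was not tested. Nnt was looked up after the values of Cyp2j9 had been seen.

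**Figure D1:**
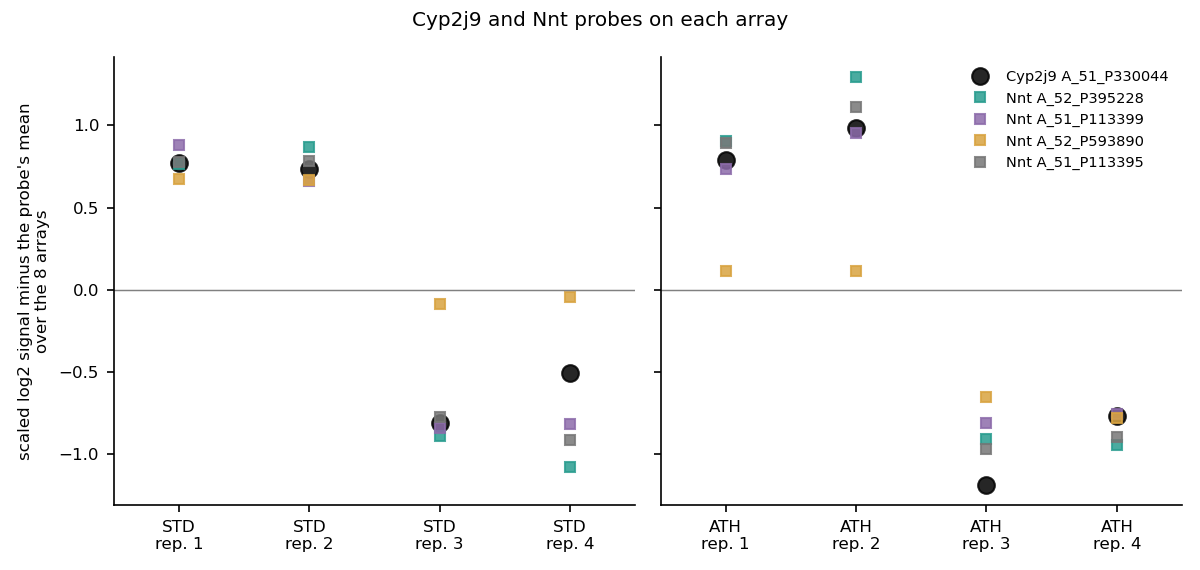
Scaled log2 signal of the Cyp2j9 probe (black circles) and of 4 Nnt probes (squares), each minus its own mean over the 8 arrays, for the 4 STD arrays (left) and the 4 ATH arrays (right). Cyp2j9 lies above its mean on replicates 1 and 2 and below it on replicates 3 and 4 of both diets, as do all 4 Nnt probes, of which A_52_P593890 has the smallest gap.

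Because each pair of replicates held 2 mice of each diet, the diet difference of every member was also read within replicates 1 and 2 and within replicates 3 and 4, and a fit with this split as a block of 2 levels was added after the data were seen. That block raised the calls at a false discovery rate of 5% from 7.99% to 14.3% of all probes tested. For Cyp2j9 the diet difference was 0.13 within replicates 1 and 2 and -0.32 within replicates 3 and 4, and the values of the other genes are given with them below.

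Of the 12 member probes tested, 3 passed a false discovery rate of 5% by limma, and these 3, 2 of Ephx1 and 1 of Cyp2j11, were lower on the ATH diet. This is 25% of the probes tested, against 7.99% of all probes, with 4.94% lower and 3.06% higher. At the 1% rate used in the Methods 0 of the 12 passed, where 0.528% of all probes did, and at an unadjusted p of 0.05 there were 7 (28.4% of all probes). The log2 fold change was below 0 for 11 of the 12, where 67.1% of all probes lay below 0. On 6 probes, 50% of those tested, every ATH array lay below every STD array, which held for 13.8% of all probes. No member probe had every ATH array above every STD array, which held for 6.01% of all probes. Under other settings the member probes called at 5% numbered 1 with quantile normalization (6.18% of all probes), 0 by spike-in scaling (9.22%), 1 with no scaling (23.7%, and then Cyp2j11 A_51_P423085 was the one called), 6 with normexp background correction (20.6%), 0 of 13 without the detection filter (2.64% of 41174 probes) and 0 by the methods' test (0.0708%). At an unadjusted p of 0.05 the methods' test gave 8 member probes, and 22.9% of all probes. With 1 array left out, the fits that called 0 members called 1.27% to 3.29% of all probes, and the one that called 4, without ATH replicate 2, called 12.8%. When a gene was represented by its probe of highest mean signal, 2 of the 8 member genes passed, against 9.34% of all genes, and the median log2 fold change over the 8 genes was -0.46, and over all 16558 genes it was -0.14. In bulk liver, fewer hepatocytes and less RNA per hepatocyte cannot be told apart.

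**Figure D2:**
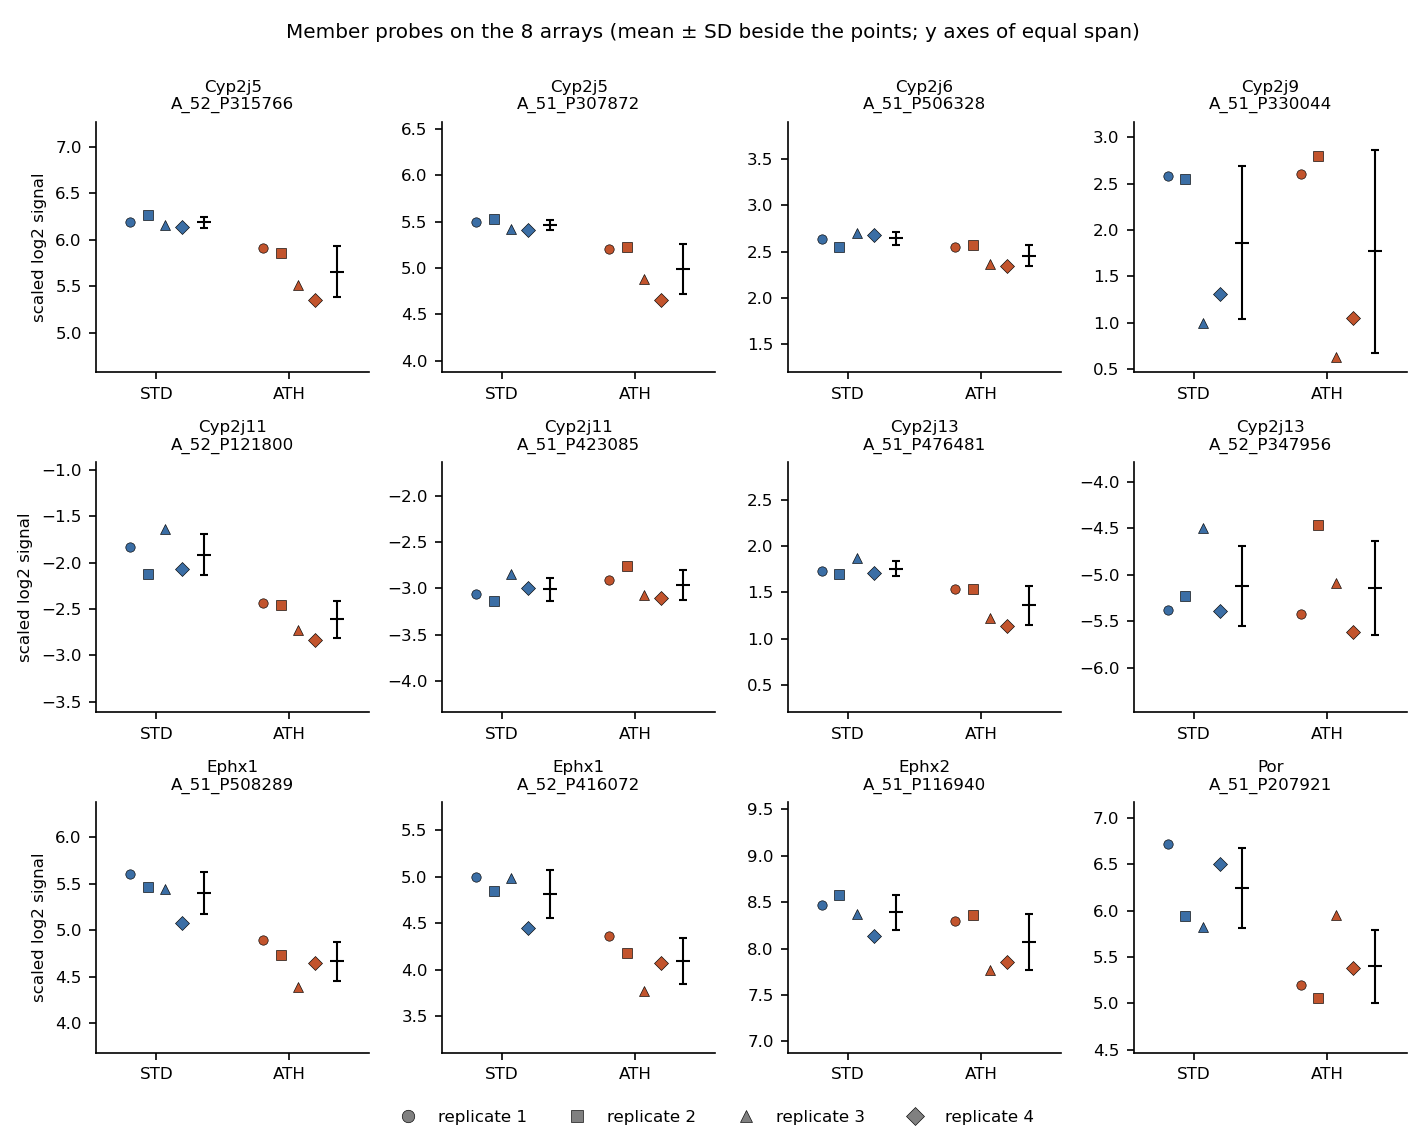
Scaled log2 signal (y axis) of the 12 tested member probes on 4 STD (blue) and 4 ATH (orange) arrays, with marker shape giving the replicate number and the mean ± SD beside the points. The Ephx1 and Cyp2j5 probes, Cyp2j11 A_52_P121800 and Cyp2j13 A_51_P476481 show no overlap between diets, and Cyp2j9 splits by replicate number instead.

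Cyp2j5 is the member of the family best known for its abundance in mouse liver and kidney. Its probe A_52_P315766, at chr4:96021828-96021887, read 6.19, 6.27, 6.16 and 6.13 on STD replicates 1 to 4. On ATH replicates 1 to 4 it read 5.91, 5.86, 5.51 and 5.35. All ATH arrays lay below all STD arrays, and the ATH arrays were more spread (SD 0.27 against 0.06). The log2 fold change was -0.53 ± 0.15, or 69.3% of the STD signal, with an adjusted p of 0.0644 by limma, above the 5% threshold. The other Cyp2j5 probe, which starts 104 bases away, gave -0.47 ± 0.15 (limma adjusted p = 0.0857), again without overlap. With the block of 2 levels, chosen after the data were seen, both probes passed (limma adjusted p = 0.0281 and 0.0380), as did 14.3% of all probes. The first probe differed by -0.34 within replicates 1 and 2 and by -0.71 within replicates 3 and 4. It passed also after normexp background correction (limma adjusted p = 0.0262) and without ATH replicate 2 (limma adjusted p = 0.0461), and with the full replicate number as a block it did not (0.0698). The difference shrank under other scalings, to -0.22 after quantile normalization (limma adjusted p = 0.249), -0.22 when scaled by spike-ins (0.306) and -0.08 with no scaling (0.642), and on the other Cyp2j5 probe it was -0.03 with no scaling (0.890). Counted from the median of all probes, A_52_P315766 was at -0.38 under the main scaling, with spike-in scaling and with no scaling. After quantile normalization it was at -0.16.

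Cyp2j6, found in liver and gut, read 2.63, 2.54, 2.70 and 2.68 on STD and 2.54, 2.57, 2.37 and 2.34 on ATH replicates 1 to 4. The diets overlapped, and the log2 fold change of -0.18 ± 0.11 did not pass (limma adjusted p = 0.320). It was -0.03 within replicates 1 and 2 and -0.33 within replicates 3 and 4. It lay 0.03 below the median of all probes, and it was above 0 with spike-in scaling (0.13) and with no scaling (0.26).

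Cyp2j11, a less studied member of the cluster, was read by probes that differed. Probe A_52_P121800, which begins ggagcaaaaaggaagaaaaagaacaagaag at chr4:95687358-95687417, read -1.83, -2.12, -1.64 and -2.07 on STD and -2.43, -2.45, -2.73 and -2.84 on ATH replicates 1 to 4. Every ATH array was below every STD array, and the signal fell to 61.7% of that on STD (log2 fold change -0.70 ± 0.16, limma adjusted p = 0.0374). Probe A_51_P423085, the one that shares 18 bases with Cyp2j13, read -3.06, -3.13, -2.85 and -3.00 on STD and -2.91, -2.76, -3.07 and -3.10 on ATH. It gave 0.05 ± 0.13 (limma adjusted p = 0.826) and the diets overlapped, while with no scaling it was 0.50 and passed (limma adjusted p = 0.0168). Both probes were detected on all 8 arrays and start 2875 bases apart. Within replicates 1 and 2 the first differed by -0.47 and the other by 0.27, and within replicates 3 and 4 they differed by -0.93 and -0.17. The call of the first probe was lost when replicate number entered as a block (limma adjusted p = 0.0600), with spike-in scaling (0.121) and with no scaling (0.203). It was also lost without STD replicate 1 (limma adjusted p = 0.0984), 2 (0.0545), 3 (0.0942) or 4 (0.0716) and without ATH replicate 3 (0.0889) or 4 (0.0955).

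Cyp2j13 had 3 probes. The brightest, A_51_P476481, read 1.73, 1.70, 1.87 and 1.71 on STD and 1.53, 1.54, 1.23 and 1.14 on ATH replicates 1 to 4. The ATH arrays were lower without overlap, but the log2 fold change of -0.40 ± 0.14 did not pass (limma adjusted p = 0.100), and with no scaling it was 0.05. Of the other two probes, A_52_P347956 was detected on 3 arrays of each diet and gave -0.02 ± 0.29 (limma adjusted p = 0.969), and A_51_P312909 was detected on 1 array of each diet and was not tested. Within replicates 1 and 2 the brightest probe differed by -0.18, and within replicates 3 and 4 by -0.61.

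Ephx1 was the member gene on which both of its probes passed. Probe A_51_P508289 read 5.60, 5.47, 5.44 and 5.08 on STD replicates 1 to 4 and 4.90, 4.73, 4.39 and 4.64 on ATH replicates 1 to 4. The highest ATH array lay 0.19 below the lowest STD array. The signal fell to 60.1% of that on STD (log2 fold change -0.73 ± 0.16, limma adjusted p = 0.0342).

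Probe A_52_P416072 of Ephx1 read 4.998, 4.84, 4.99 and 4.44 on STD and 4.36, 4.18, 3.77 and 4.08 on ATH replicates 1 to 4. The diets again did not overlap, with a gap of 0.09, and the log2 fold change was -0.72 ± 0.18 (60.6% of the STD signal, limma adjusted p = 0.0441). On both probes STD replicate 4 was the lowest STD array and ATH replicate 3 the lowest ATH array. On either side of the split shown by Cyp2j9 and Nnt, the difference on A_51_P508289 was -0.72 within replicates 1 and 2 and -0.75 within replicates 3 and 4. On A_52_P416072 it was -0.65 and -0.79. Each of these values rests on 2 mice per diet, and whether the sides differ was not tested.

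The Ephx1 calls lay near the threshold. With the full replicate number as a block A_51_P508289 had a limma adjusted p of 0.04999 and A_52_P416072 of 0.0625, which left 1 member probe called where 4.45% of all probes were. For A_51_P508289 the adjusted p was 0.0929 without STD replicate 1, 0.0701 without STD replicate 2, 0.0883 without STD replicate 3, 0.0785 without ATH replicate 3 and 0.0848 without ATH replicate 4. For A_52_P416072 it was above the threshold in the same cases and also without STD replicate 4 (0.0527), with a highest value of 0.113 without STD replicate 1. With median scaling A_52_P416072 did not pass (limma adjusted p = 0.0597). With the block of 2 levels, chosen after the data were seen, both probes passed (limma adjusted p = 0.0157 and 0.0246), as did 14.3% of all probes. Both log2 fold changes stayed below 0 in all 22 alternatives run. Alternatives that changed only the test, block, threshold or detection filter could not move them. After quantile normalization the log2 fold changes came to -0.46 and -0.50, and when scaled by spike-ins to -0.42 and -0.41. With no scaling they were -0.29 and -0.28, and neither probe passed in these 3 settings. Counted from the median of all probes, A_51_P508289 was at -0.58 under the main scaling, and 6.45% of all probes had a lower log2 fold change. This distance was also -0.58 with spike-in scaling and with no scaling, and it was -0.41 after quantile normalization.

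Ephx2 read 8.47, 8.58, 8.37 and 8.14 on STD and 8.30, 8.36, 7.77 and 7.86 on ATH replicates 1 to 4. ATH replicates 1 and 2 lay among the STD arrays, and ATH replicates 3 and 4 lay below them. The log2 fold change of -0.32 ± 0.18, or 80.2% of the STD signal, did not pass (limma adjusted p = 0.267). It was -0.20 within replicates 1 and 2 and -0.44 within replicates 3 and 4. The sign depended on the scaling, since the log2 fold change was 0.08 after quantile normalization, -0.01 when scaled by spike-ins and 0.13 with no scaling.

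Por read 6.71, 5.94, 5.82 and 6.50 on STD and 5.20, 5.06, 5.95 and 5.38 on ATH replicates 1 to 4. ATH replicate 3 lay above STD replicates 2 and 3, and the other ATH arrays lay below every STD array. The log2 fold change was -0.85 ± 0.26 (55.6% of the STD signal) and did not pass (limma adjusted p = 0.0759). It was -1.20 within replicates 1 and 2 and -0.49 within replicates 3 and 4. After normexp background correction it passed (limma adjusted p = 0.0450), and with no scaling it was still -0.40. Without STD replicate 1 it was -0.69, and without ATH replicate 3 it was -1.03.

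**Figure D3:**
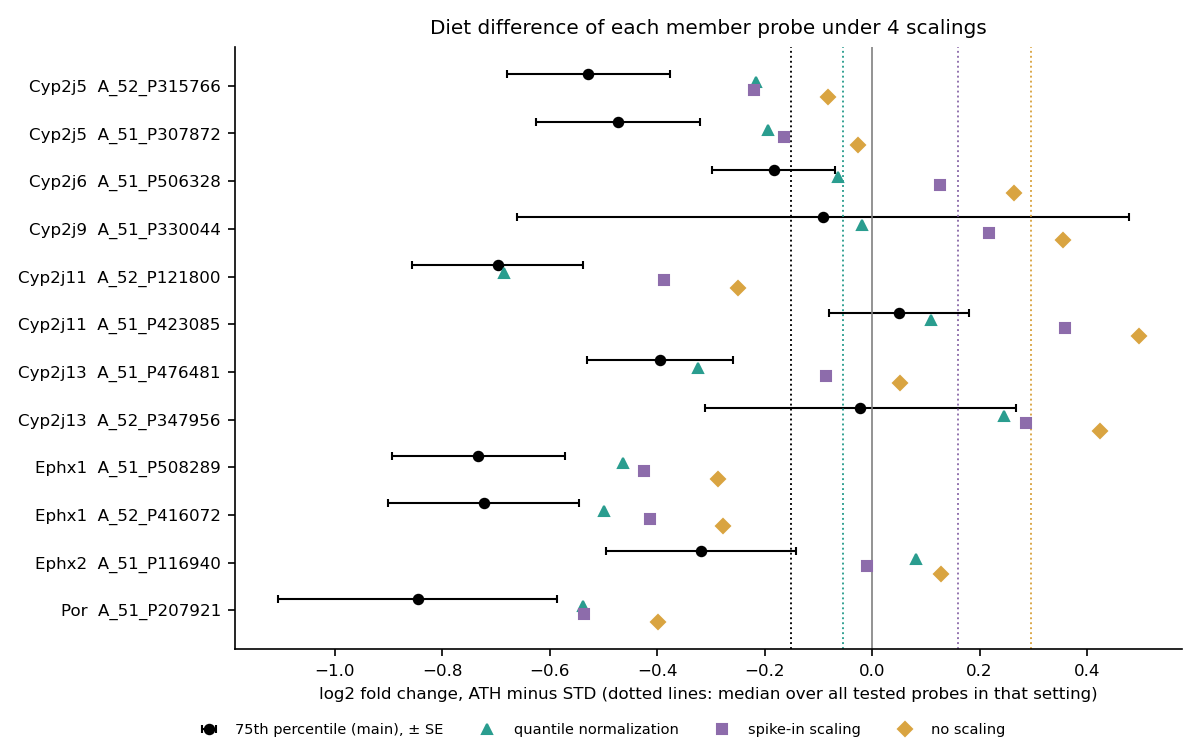
Log2 fold change (ATH minus STD, x axis) of the 12 member probes under the main 75th percentile scaling (black, ± SE) and under quantile normalization, spike-in scaling and no scaling, with dotted lines at the median of all tested probes in each setting. Ephx1, Por, Cyp2j5 and Cyp2j11 A_52_P121800 stay left of 0 under all 4 scalings, and Ephx2, Cyp2j6 and Cyp2j13 A_51_P476481 cross it under at least 1.

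A difference between members within an array does not move with a scaling constant, so 4 such differences were compared between diets by two-sided exact permutation tests over all 70 assignments of the arrays (smallest possible p = 0.0286). The highest-signal probe stood for each gene. Ephx1 minus Ephx2 was lower on ATH than on STD by a log2 change of -0.42, with all ATH arrays below all STD arrays (exact permutation p = 0.0286, 0.114 after Benjamini-Hochberg adjustment over the 4). Cyp2j5 minus Ephx2 changed by -0.21 with overlap (exact permutation p = 0.0857, adjusted 0.171), Cyp2j5 minus Por by 0.32 (p = 0.400 by the same permutation test, adjusted 0.400) and Ephx2 minus Por by 0.53 (p = 0.286 by the same permutation test, adjusted 0.381). None of the 4 passed after adjustment. A difference at the smallest possible p reaches only 0.114 on its own after this adjustment of the permutation test, so not passing says little. Within replicate numbers the smallest p that can be reached is 0.125.

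**Figure D4:**
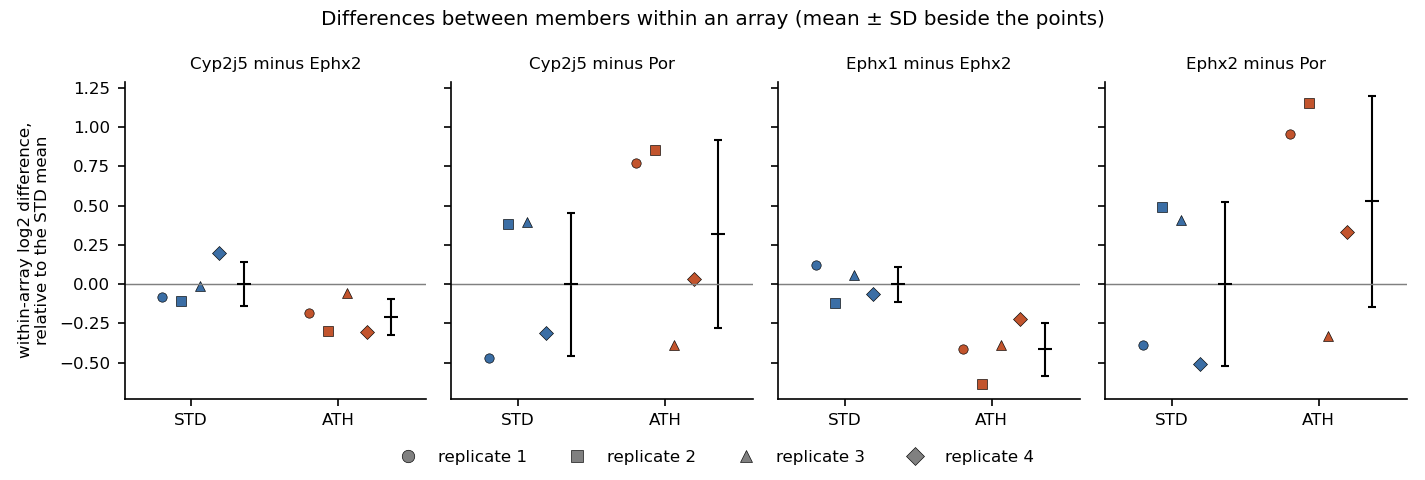
Difference between 2 member genes within an array on the log2 scale, relative to its mean on STD (y axis), for 4 pairs of genes on 4 STD (blue) and 4 ATH (orange) arrays, with mean ± SD beside the points. Ephx1 minus Ephx2 is lower on every ATH array than on any STD array, and the other three differences overlap between diets.

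The genes with profiles nearest to those of the members were ranked in the same way as for Cyp2j9, over 8 arrays and 14937 genes. For Cyp2j5 they were Slc27a5, a bile acid and fatty acid CoA ligase (root mean square difference 0.0429), Lancl1 (0.0446) and Ndufv1, a subunit of respiratory complex I (0.0488). For Ephx1 they were Gstm6, a glutathione S-transferase (0.0553), 4931406C07Rik (0.103) and Hsdl2 (0.105). For Ephx2 they were Cdkn2aip (0.0510), Clmn (0.0519) and Pex13, a peroxisome import factor (0.0531). For Por the nearest were Lpin2 (0.221), Prr5 (0.225) and Myh1 (0.238), so no gene followed Por as closely as those named for Cyp2j5, Ephx1 and Ephx2 followed them.

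Other genes of the pathway were read from 10 lists. Over all genes tested, 5.30% fell and 4.05% rose. Their median log2 fold change was -0.14, and it was -0.03 after quantile normalization, 0.17 with spike-in scaling and 0.31 with no scaling. Of the Cyp2c epoxygenases, 2 of 11 fell and 0 rose, with a median log2 fold change of -0.73 (-0.29 with no scaling). Cyp2c55 fell with a log2 fold change of -2.18 (limma adjusted p = 0.0178) and Cyp2c38 with one of -0.91 (0.0450). A list of electron donors and other partners of P450 enzymes had 2 of 11 genes fall and 0 rise. Its median was -0.50 (-0.23 after quantile normalization and -0.05 with no scaling). The genes that fell were Cyb5b, the outer mitochondrial membrane cytochrome b5 (-0.93, limma adjusted p = 0.0190), and Cyb5r3, the cytochrome b5 reductase (-0.76, 0.0254). Cyb5a, another cytochrome b5, did not pass (-0.50, limma adjusted p = 0.125). Among reductases built like Por, Ndor1 was the 1 of 4 tested that fell (-0.72, limma adjusted p = 0.0354). That list's median of -0.28 was above 0 with spike-in scaling (0.03) and with no scaling (0.16).

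P450 reductase also feeds electrons to enzymes that are not P450s and to P450s of sterol synthesis. Of 5 such genes, 3 fell and 0 rose, and all 3 belong to cholesterol synthesis. Sqle, squalene epoxidase, had a log2 fold change of -5.35 (limma adjusted p = 0.00664), Cyp51, lanosterol demethylase, of -2.67 (0.00642) and Dhcr7, the last reductase of the pathway, of -1.94 (0.00923). Heme is the cofactor of all P450 enzymes, and 0 of 8 heme synthesis genes passed by limma, although all 8 lay below 0 with a median of -0.45 (-0.00022 with no scaling). Alas1, the rate-limiting enzyme, was at -0.86 ± 0.58 (limma adjusted p = 0.355) and Cpox at -0.67 ± 0.24 (0.110).

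Of 13 regulators of hepatic P450 genes 0 passed by limma, with a median of -0.31 that was 0.13 with no scaling. Nr1i2, encoding PXR, was at -0.77 ± 0.58 (limma adjusted p = 0.411) and Nr1i3, encoding CAR, at -0.67 ± 0.30 (0.178). Of 12 targets of NRF2, the oxidative stress regulator known to act on Ephx1, 1 rose and 0 fell (median -0.07, and 0.37 with no scaling). The riser was Cbr3 (1.73, limma adjusted p = 0.0430). Of 11 targets of PPAR-alpha, the lipid sensor known to induce Ephx2 and Cyp4a genes, 5 fell and 0 rose (median -0.92, -0.52 after quantile normalization and -0.48 with no scaling). The log2 fold change was -3.82 for Cyp4a14 (limma adjusted p = 0.0426), -2.38 for Pdk4 (0.00801), -1.20 for Vnn1 (0.0300) and -1.16 for Cyp4a10 (0.0178). Of the other epoxide hydrolases 0 of 2 tested passed by limma. Ephx3 was at 0.10 ± 0.29 (limma adjusted p = 0.838) and Lta4h at -0.20 ± 0.12 (0.309).

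Markers of cell types moved with the diet beside these members. Of 12 macrophage markers 7 rose and 0 fell, with a median log2 fold change of 1.81, and among those that rose Marco was at 3.43, Lgals3 at 2.77, Cd14 at 2.56 and Ctss at 2.22 (limma adjusted p = 0.0352, 0.0134, 0.0478 and 0.0352). Their summed linear signal, in units of the array's 75th percentile, ran from 74.3 to 79.9 on STD and from 133 to 542 on ATH arrays. The brightest probes weigh most in such a sum, which also moves with the scaling. All 12 hepatocyte markers with a probe were detected, and 2 fell and 0 rose. Those 2 were Tat (-1.05, limma adjusted p = 0.0104), tyrosine aminotransferase, and Ass1 (-0.70, 0.0449), of the urea cycle. The hepatocyte median was -0.32, but it was 0.09 with quantile normalization and 0.13 with no scaling, and the summed signal ran from 5159 to 5786 on STD and from 3824 to 4963 on ATH arrays. Over all genes the median was -0.14, with -0.03 after quantile normalization and 0.31 with no scaling. One gene each rose among 9 stellate cell markers (Col3a1, 1.74, limma adjusted p = 0.0326), 7 endothelial markers (Lyve1, 1.21, 0.0361) and 6 cholangiocyte markers (Sox9, 1.04, 0.0390). Of 8 T and B cell markers 0 passed by limma, the largest values being those of Cd8a (2.60, adjusted p = 0.0873) and Cd3d (1.66, 0.0935). When replicate number entered as a block, 4 of the macrophage markers passed, and the calls of Cd68 (limma adjusted p = 0.0551), Cd14 (0.0524), Ctss (0.0512), Ass1 (0.0682), Cbr3 (0.0642) and Ndor1 (0.0507) were lost. The part of cell makeup in the members' differences was not tested.

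The 250 bases before the annotated start were read for 7 of the 8 members from RefSeq sequences of the assembly GRCm38.p6. Those of Ephx1 (both probes passed), Cyp2j11 (only A_52_P121800 passed), Cyp2j5 and Por (no probe passed) are shown. They are given in the direction of the gene, with matches to 5 motifs in capitals.
Ephx1 chr1:181017570-181017819 (minus strand): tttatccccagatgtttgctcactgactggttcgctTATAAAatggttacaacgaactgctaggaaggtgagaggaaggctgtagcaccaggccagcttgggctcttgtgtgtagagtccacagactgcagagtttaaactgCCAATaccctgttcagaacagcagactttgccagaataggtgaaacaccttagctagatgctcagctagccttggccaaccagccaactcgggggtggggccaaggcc
Cyp2j11 chr4:96348681-96348930 (minus strand): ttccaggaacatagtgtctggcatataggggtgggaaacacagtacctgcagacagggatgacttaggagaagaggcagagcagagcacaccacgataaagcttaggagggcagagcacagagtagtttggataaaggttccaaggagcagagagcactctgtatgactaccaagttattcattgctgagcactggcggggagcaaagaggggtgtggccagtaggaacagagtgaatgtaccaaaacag
Cyp2j5 chr4:96664120-96664369 (minus strand): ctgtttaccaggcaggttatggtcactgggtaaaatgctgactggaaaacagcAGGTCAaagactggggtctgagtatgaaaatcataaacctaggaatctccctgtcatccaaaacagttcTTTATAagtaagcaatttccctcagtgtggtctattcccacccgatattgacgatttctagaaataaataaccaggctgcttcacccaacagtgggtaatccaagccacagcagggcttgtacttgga
Por chr5:135688895-135689144 (plus strand): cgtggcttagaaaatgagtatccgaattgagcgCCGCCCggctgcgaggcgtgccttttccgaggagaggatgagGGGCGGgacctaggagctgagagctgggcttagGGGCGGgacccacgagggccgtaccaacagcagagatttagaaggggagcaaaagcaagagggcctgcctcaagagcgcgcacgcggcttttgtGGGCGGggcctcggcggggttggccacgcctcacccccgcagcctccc
The motifs, searched on both strands, were the TATA box (TATAAA), the CCAAT box (CCAAT), the GC box (GGGCGG), the core of the antioxidant response element that NRF2 binds (TGACNNNGC) and a nuclear receptor half-site (AGGTCA). Por held 4 GC boxes and had a GC content of 65.6%, where Cyp2j5 had 44.0%. Ephx1 held a TATA box and a CCAAT box, with first bases at -214 and -108 from the start. Cyp2j5 held an AGGTCA half-site at -197 and a TATA box at -128, the latter on the opposite strand. Cyp2j11 held none of the 5, as did Cyp2j9, and no member window held TGACNNNGC. Of 32851 mouse windows of this length, 12.4% held TATAAA, 33.8% CCAAT, 32.7% GGGCGG, 10.2% TGACNNNGC and 14.0% AGGTCA. These matches describe letters only, since no binding was measured.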

How the data were processed

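Liver RNA of 8 mice was labeled with Cy3 and hybridized to 1-color Agilent arrays. Per the labels, the submitters used Agilent Feature Extraction 9.5. The authors deposited the spot intensity output of each array and a table of log2 values, whose scaling is not given in the sources used here and which served as an alternative. Control spots and outlier spots were left out, spots of a probe averaged, and the 75th percentile of the array subtracted from the log2 intensity. Probes well above background and positive on at least 3 arrays of a diet entered limma 3.58.1 in R 4.3.3 (lmFit, eBayes, Benjamini-Hochberg over 31056 probes). The test with unequal variances named in the Methods was an alternative, read at 5% (at their 1% it called 0 probes, against 164 by limma, and 7105 at an unadjusted p of 0.05). Of the probes, 22951 were named by accession, 6659 by symbol and 3109 by synonym, and 8455 stayed unnamed. Exact tests used Python 3.11.15 with scipy 1.17.1. The limma step was tested on simulated data.

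The members and gene lists were chosen with earlier results of these data known. Named genes were all members, up to 4 genes called per list by size (otherwise the 2 with the largest change) and the 3 nearest profiles for Cyp2j5, Ephx1, Ephx2 and Por. Nnt was added after its values were seen. Same-numbered arrays deviated together (correlations of 0.1002, 0.2297, 0.1815 and 0.1766 across probes), so the replicate number was taken to pair them and a blocked fit was run. Replicate 1 correlated more with another number (0.1754) than with its own. Array number limits the precision. Under the listed names, Cyp2j7, Cyp2j8, Cyp2j12, Cyp2j14, Cyp2j15, 4 Cyp2c genes and Serpina1c had no probe and were not analysed here. Ephx4 and Nos2 were not detected.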

Additional observations from a re-analysis of the deposited data

How the results depend on the processing

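The count of 3 member probes called became 1 with quantile normalization, 0 when scaled by spike-ins, 1 with no scaling, 6 with normexp background correction, 0 without the detection filter, 0 by the methods' test (8 at an unadjusted p of 0.05), 0 at a threshold of 1%, 1 with the replicate number as a block and 5 with the block of 2 levels. With 1 array left out it ran from 0 to 4, where 1.27% to 12.8% of all probes were called. The median log2 fold change over member genes, -0.46, became -0.27 with quantile normalization, -0.15 when scaled by spike-ins and -0.0153 with no scaling. Over all genes the median was -0.14 in the main setting, -0.03 with quantile normalization, 0.17 when scaled by spike-ins and 0.31 with no scaling. The 14 genes called over the pathway lists became 28 with normexp, 9 without the detection filter, 0 by the methods' test, 4 at 1%, 30 with the block of 2 levels and 4 to 20 with 1 array left out. The 12 genes called over the marker lists became 32 with no scaling, 21 with normexp, 3 without the detection filter, 0 by the methods' test, 1 at 1%, 23 with the block of 2 levels and 3 to 21 with 1 array left out. Of all probes, 7.99% were called in the main setting, 23.7% with no scaling, 20.6% with normexp and 2.64% without the detection filter. The share was 0.0708% by the methods' test, 0.528% at 1% and 14.3% with the block of 2 levels.

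Signs turned for probes that did not pass in the main setting. The median of all probes turned too, to 0.16 with spike-in scaling and 0.30 with no scaling. Cyp2j6 came to 0.13 with spike-in scaling and 0.26 with no scaling, and Cyp2j9 to 0.22 and 0.35 in these settings and to between -0.43 and 0.29 with 1 array left out. Cyp2j11 A_51_P423085 came to -0.0881 with normexp and to between -0.0174 and 0.11 with 1 array left out. Cyp2j13 A_51_P476481 came to 0.0513 with no scaling. Cyp2j13 A_52_P347956 came to 0.0520 with median scaling, 0.24 with quantile normalization, 0.29 when scaled by spike-ins, 0.42 with no scaling and between -0.25 and 0.19 with 1 array left out. Ephx2 came to 0.0814 with quantile normalization and 0.13 with no scaling. The 4 within-array differences kept their sign in the 13 alternatives run, though the replicate block and keeping outlier spots could not change them. They also stayed above the threshold after adjustment, which says little, since a difference at the smallest possible p cannot pass on its own. The replicate block ended the call of no other gene named from the lists than those given above. The causes were not tested.

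Over all probes, calls at 5% numbered 2482 in the main setting, 7365 with no scaling, 6394 with normexp, 1383 with the replicate block, 4435 with the block of 2 levels and 22 by the methods' test. The number of arrays, 4 per diet, each diet on its own slide, and the choice of scaling limit every value given, and the members' calls lie close to the threshold.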

Other observations

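Further genes followed the replicate split of Cyp2j9, as values with no test. After Nnt, the nearest profiles were those of Plcd3, a phospholipase C (root mean square difference 0.279), Fibin (0.319), Arrdc3 (0.325) and Obp2a (0.329), all on higher signal in replicates 1 and 2 than in replicates 3 and 4 of each diet. Arrdc3, for instance, read 3.87, 3.48, 1.94 and 2.62 on STD and 3.72, 3.68, 2.58 and 2.11 on ATH replicates 1 to 4. Beyond the nearest 3 profiles of Cyp2j5 came Atp5b, the beta subunit of the mitochondrial ATP synthase (0.0496), and Ndufa10 of respiratory complex I (0.0515), and beyond those of Ephx1 came Decr1 of mitochondrial fatty acid oxidation (0.106). These genes were named after their values were seen, and what the split stands for was not tested.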
